A study of Saccharomyces cerevisiae with 8 samples.

Results

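The genes of trehalose synthesis and breakdown were compared between a pressure-sensitive mutant of budding yeast and its parent strain. The 7 genes were taken by name from the scanner tables, and each was found once among 6256 genes. They are TPS1 (YBR126C), TPS2 (YDR074W), TPS3 (YMR261C) and TSL1 (YML100W) of the trehalose synthase complex, the neutral trehalases NTH1 (YDR001C) and NTH2 (YBR001C), and the acid trehalase ATH1 (YPR026W). The mutant group was strain a924E1 and the control group was its parent KA31a, with 4 cultures of each. All cultures had grown for 48 h at 30 °C in YPD, a rich medium with 2.0% glucose, and the labels name no pressure treatment. The labels name no gene altered in a924E1, and the mutant is represented by that single strain. Each culture gave total RNA for cRNA carrying Cy5 and was read on an array of its own, with 1 probe in 2 spots for each gene.

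Trehalose is a disaccharide of glucose that yeast stores as growth slows and that protects proteins and membranes under heat, drying and other stress. Tps1 joins glucose 6-phosphate to UDP-glucose to make trehalose 6-phosphate, which also restrains hexokinase, and Tps2 removes the phosphate. Tps3 and Tsl1 are related regulatory subunits that hold the complex together. Nth1 is the main trehalase of the cytosol and is switched on by protein kinase A together with 14-3-3 proteins, Nth2 is its close relative, and Ath1 splits trehalose in the vacuole and at the cell surface. Many of these genes are known targets of the stress transcription factors Msn2 and Msn4, which cAMP signalling holds back.

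Signal differed widely between the arrays. The median spot signal over local background ran from 5 to 182 intensity units, and 602 to 5272 probes per array were above background, meaning that both spots reached a signal-to-noise ratio of 3. Mutants 5 and 7 and parent 8 were scanned at a photomultiplier gain of 700 and the other arrays at 600. The 3 arrays of gain 700 had the lowest counts of probes above background. Strain and position on the slide cannot be told apart, because every mutant array was in column 1 of its slide and every parent array in column 2. Pearson's r over all genes was 0.932 to 0.996 among mutant arrays, 0.959 to 0.989 among parent arrays and 0.869 to 0.939 between strains. Mutants 1 and 3 stood out as very alike, with an r of 0.996. Levels below are log2 of background-corrected, quantile-normalized intensity, whose offset understates differences of dim genes. In RNA of a whole culture, fewer expressing cells and less RNA per cell cannot be told apart.

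Trehalose genes were higher in the mutant where they differed. By limma, with p-values adjusted over all genes and a threshold of 0.05, TPS1, TPS2, TPS3 and NTH2 rose, none of the 7 fell, and TSL1, NTH1 and ATH1 did not pass. These 4 genes are 57.1% of the members, whereas 26.6% of all genes passed, of which 12.7% rose and 14.0% fell as shares of all genes. Without mutant 1, without mutant 3 or without parent 6, 2 of the 7 passed, in each case TPS3 and NTH2. The same 2 genes passed with mutants 1 and 3 and parents 6 and 8 averaged as the closest arrays, and with parents 4 and 6 averaged in place of 6 and 8 only TPS3 did. The largest rise was 1.62-fold, for TPS2. The 7 differences ran from 0.12 to 0.70 with a median of 0.47, beside a median of 0.05 over all genes. Of the 582 genes above background on all 8 arrays, 34.7% rose and 16.8% fell, and their median difference was 0.20. Among the 1536 genes above background on all 4 arrays of at least 1 strain, fitted alone, the lean was opposite, with 310 that rose and 428 that fell. Mutant 7 had 602 probes above background, so nearly all genes beyond the 582 entered through the parent arrays. Such a filter favours genes lower in the mutant, so this lean cannot be read as a result. The 582 genes were in turn set mainly by mutant 7, and a filter on a mutant array favours genes higher in the mutant. Their shares and median are therefore not a neutral background. TPS1, TPS2, NTH1 and NTH2 were among those 582 genes, and 3 of these 4 rose. The strains did not overlap for TPS1, TPS3 and NTH2, or 42.9% of the members, beside 29.9% of all genes without overlap, 15.2% with every mutant array higher and 14.7% with every mutant array lower. The calls depended on the scaling of the arrays, since with each array scaled by its 75th percentile or its median in place of quantile normalization 0 of the 7 passed in limma, and 1 had an unadjusted p under 0.05 in either case. Of the 5 lists of related genes described further on, 0 genes passed under either scaling.

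**Figure D1:**
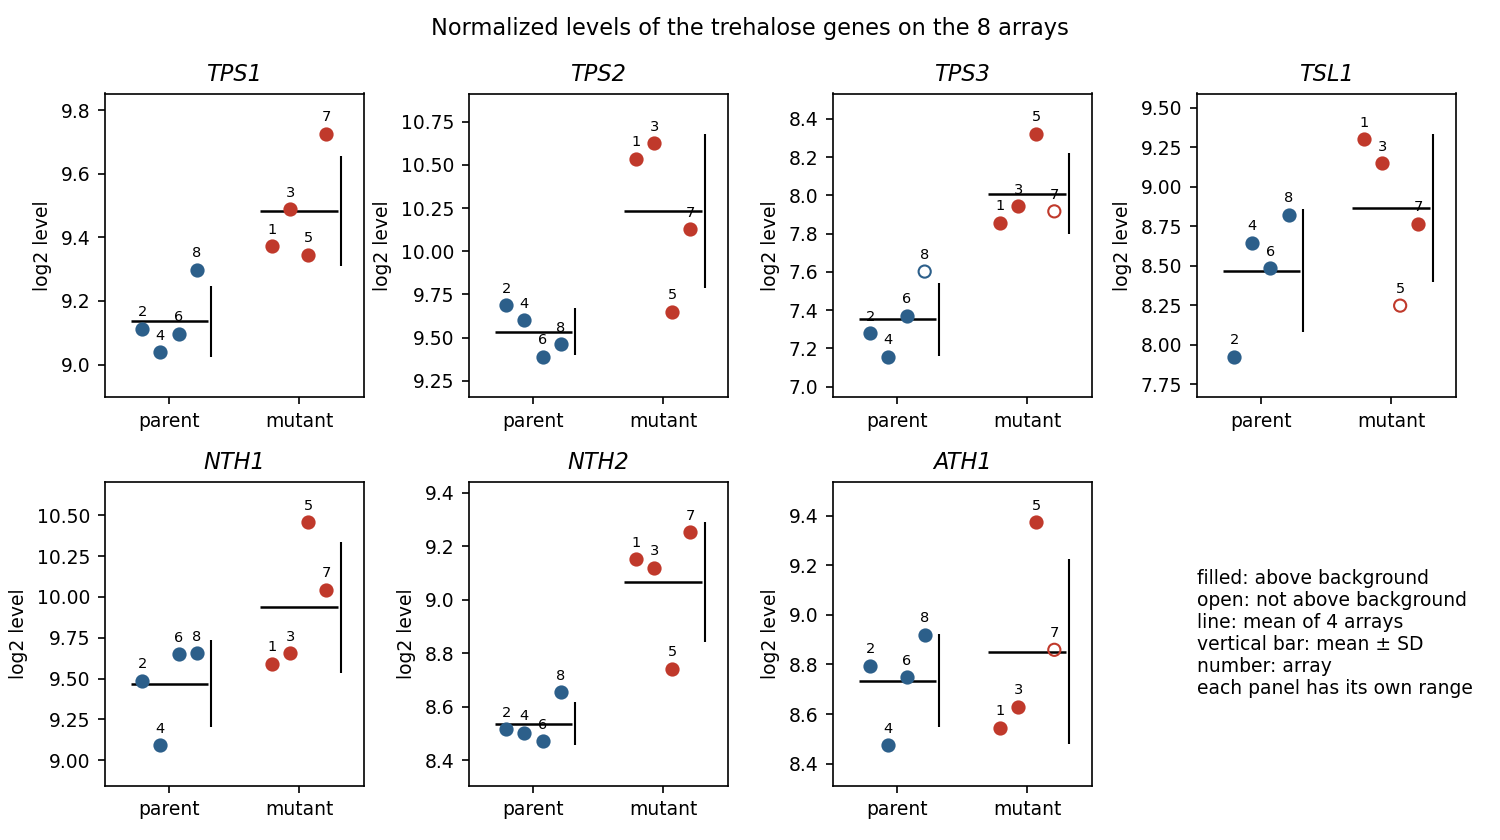
Normalized log2 level (vertical axes, each with its own range) of each trehalose gene on the 4 parent arrays (blue, numbered 2 to 8) and the 4 mutant arrays (red, numbered 1 to 7), with the mean of 4 arrays as a line and mean ± SD as a bar. Every mutant point lies above every parent point for TPS1, TPS3 and NTH2, and open points mark arrays on which the gene was not above background.

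In the catalytic core, TPS1 encodes the synthase itself. Its log2 level was 9.37, 9.49, 9.35 and 9.73 on mutants 1, 3, 5 and 7, and 9.11, 9.04, 9.10 and 9.30 on parents 2, 4, 6 and 8. The lowest mutant array thus stood just above parent 8, the highest of the parent arrays. TPS1 rose by 0.35 ± 0.12 (SE, n = 4 per strain), or 1.27-fold, with an adjusted p of 0.0449, and was above background on all 8 arrays. The call ended when mutant 1, 3 or 7 or parent 2, 4 or 6 was left out, with adjusted p between 0.0587 and 0.133 and estimates between 0.27 and 0.38.

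The TPS1 rise rested on 1 of its 2 spots. The first spot gave a strain difference of 0.65 and the second spot 0.04. On mutant 5 the spots read 632 and 105 intensity units over background, and on mutant 3 they read 2372 and 1159, whereas on parent 2 they read 1218 and 1323. The gap between the normalized spots ran from -0.13 to 2.05 over the 8 arrays.

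TPS2, the trehalose 6-phosphate phosphatase, had the largest difference of the 7 genes. Its level was 10.54, 10.63, 9.65 and 10.13 on mutants 1, 3, 5 and 7, and 9.69, 9.60, 9.39 and 9.46 on parents 2, 4, 6 and 8. Mutant 5 was low and fell within the range of the parent arrays, and the other mutant arrays were above all of them. TPS2 rose by 0.70 ± 0.19 (SE, n = 4 per strain), with an adjusted p of 0.0186, and its spots agreed at 0.74 and 0.66. Leaving out mutant 1 or 3 or parent 6 or 8 ended the call, with adjusted p between 0.0517 and 0.0556 and estimates of 0.57 to 0.68.

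Of the regulatory subunits, TPS3 gave the clearest difference. It read 7.86, 7.94, 8.32 and 7.92 on mutants 1, 3, 5 and 7, and 7.28, 7.15, 7.37 and 7.60 on parents 2, 4, 6 and 8. Mutant 5 was the highest array, parent 8 was the highest parent, and the strains did not overlap. TPS3 rose by 0.66 ± 0.14 (SE, n = 4 per strain), or 1.58-fold, with an adjusted p of 0.00417. It was a dim gene, at 40.5 to 267 units over background on the parent arrays, and it was not above background on mutant 7 or parent 8. The call held without any 1 array, with estimates between 0.55 and 0.74. Its spots gave 0.59 and 0.73.

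TSL1, the relative of TPS3, did not pass. Its level was 9.30, 9.15, 8.25 and 8.77 on mutants 1, 3, 5 and 7, and 7.92, 8.65, 8.48 and 8.82 on parents 2, 4, 6 and 8. Mutants 1 and 3 were above all parent arrays, mutant 5 was below all but parent 2, and parent 2 was the lowest array of all. The difference was 0.40 ± 0.24 (SE, n = 4 per strain), with an adjusted p of 0.258 and a 95% interval from -0.13 to 0.92. It was 0.88 within the arrays of gain 600, where it passed with an adjusted p of 0.0391, and -0.31 within gain 700. The only mutant arrays of gain 600 were mutants 1 and 3, the very alike pair (r = 0.996), and parent 2 was among the parent arrays. The low value of parent 2 came from the first spot, which read 243 units over background beside 894 in the second. Without parent 2 the difference was 0.22 (adjusted p = 0.545). The first spot alone gave 0.75 and the second 0.05, and on mutant 5, where TSL1 was not above background, the spots read 215 and 39 units.

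**Figure D2:**
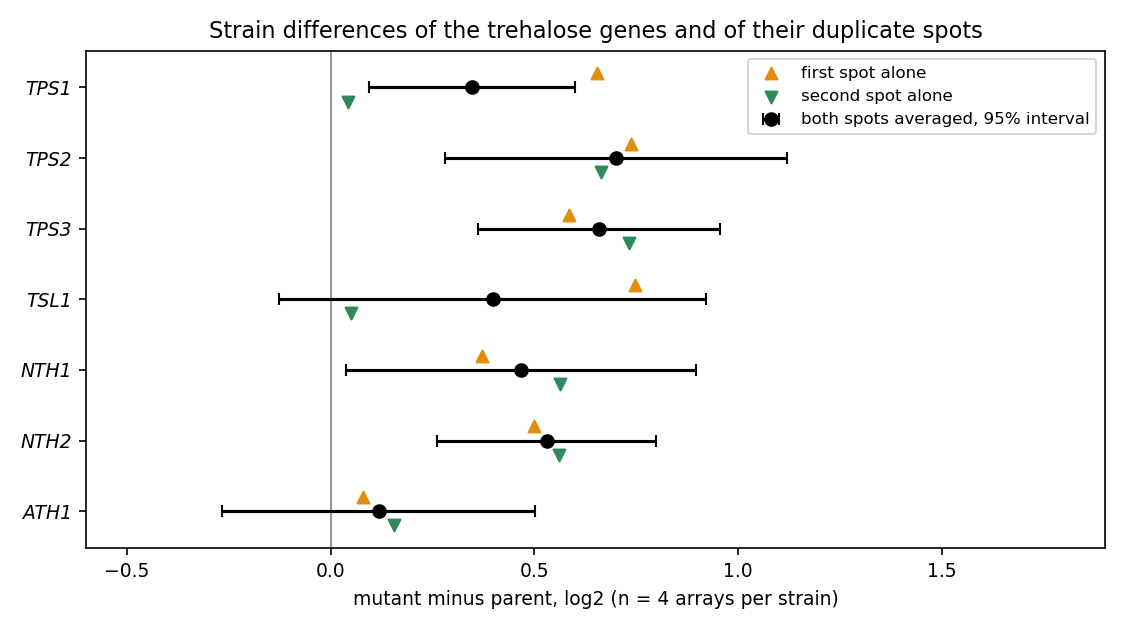
Mutant minus parent difference in log2 level (horizontal axis) for each trehalose gene, with both spots averaged (black, 95% interval from limma, n = 4 arrays per strain) and for the first spot (orange) and the second spot (green) alone. The spots agree closely for TPS2, NTH2 and ATH1, and lie 0.65 against 0.04 for TPS1 and 0.75 against 0.05 for TSL1.

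Of the neutral trehalases, NTH2 rose. Its level was 9.15, 9.12, 8.74 and 9.25 on mutants 1, 3, 5 and 7, and 8.52, 8.50, 8.47 and 8.65 on parents 2, 4, 6 and 8. The parent arrays lay close together, mutant 5 was the lowest mutant array, and the strains did not overlap. NTH2 rose by 0.53 ± 0.12 (SE, n = 4 per strain), or 1.44-fold, with an adjusted p of 0.00810. It was above background on all 8 arrays, and the call held without any 1 array, with estimates between 0.47 and 0.64. The spots of NTH2 gave strain differences of 0.50 and 0.56, and neither passed alone in limma (adjusted p = 0.0523 and 0.108). The gap between its normalized spots ran from -0.00087 to 1.11 over the 8 arrays.

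NTH1, which encodes the main neutral trehalase, did not pass. It read 9.59, 9.65, 10.46 and 10.04 on mutants 1, 3, 5 and 7, and 9.49, 9.09, 9.65 and 9.65 on parents 2, 4, 6 and 8. Mutants 5 and 7, both scanned at gain 700, were above every parent array, while mutants 1 and 3 lay at the upper end of the parent range. The difference was 0.47 ± 0.20 (SE, n = 4 per strain), with an adjusted p of 0.105 and an unadjusted 95% interval from 0.04 to 0.90. It passed with slide row as a block (adjusted p = 0.0267). Without 1 array it ran from 0.29, without mutant 5, to 0.58, and did not pass in any of the 8 cases. The spots of NTH1 gave 0.37 and 0.56, and all 8 arrays were above background.

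ATH1, the acid trehalase, had the smallest difference. It read 8.55, 8.63, 9.37 and 8.86 on mutants 1, 3, 5 and 7, and 8.80, 8.47, 8.75 and 8.92 on parents 2, 4, 6 and 8. Mutant 5 was the only mutant array above the highest parent array, and mutant 7 was not above background. The difference was 0.12 ± 0.18 (SE, n = 4 per strain), with an adjusted p of 0.666 and a 95% interval from -0.27 to 0.50. Without mutant 5 it was -0.06. The sign also turned within gain 600, at -0.09.

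Each slide row held 1 mutant and 1 parent array, and row 3 paired mutant 5 at gain 700 with parent 6 at gain 600. TPS1, TPS2, TPS3, NTH1 and NTH2 were higher on the mutant array in 4 of 4 rows, whereas TSL1 and ATH1 were higher in 2 of 4. For TPS1, TPS3 and NTH2 the 4 of 4 follows from the lack of overlap between the strains. NTH2 ran from 0.27 to 0.63 over the rows and TPS3 from 0.31 to 0.95. The widest spread was that of TSL1, from -0.24 to 1.38. Within gain 600 the differences of TPS1, TPS2, TPS3 and NTH2 were 0.35, 1.02, 0.63 and 0.64, and within gain 700 they were 0.24, 0.43, 0.52 and 0.34. NTH1 went the other way between the gains, at 0.21 and 0.60. Whether the gap between gains exceeds the spread was not tested, since gain 700 has 1 parent array.

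**Figure D3:**
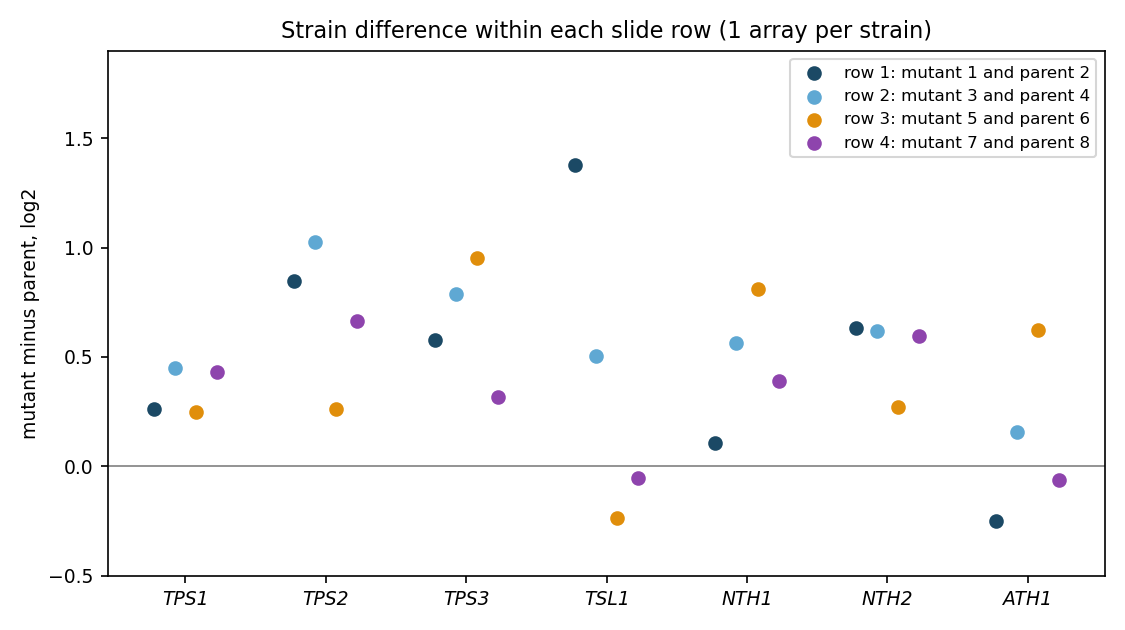
Mutant minus parent difference in log2 level (vertical axis) within each of the 4 slide rows, for each trehalose gene, with 1 mutant and 1 parent array per point. All points of TPS1, TPS2, TPS3, NTH1 and NTH2 lie above 0. Row 3, which pairs a mutant array of gain 700 with a parent array of gain 600, gives an extreme point of each gene. That point is the lowest of TPS1, TPS2, TSL1 and NTH2 and the highest of TPS3, NTH1 and ATH1.

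Paired genes were set against each other within each array, which asks whether the strains differ in the ratio of 2 transcripts. For TSL1 minus TPS3 the strain difference was -0.26, with values of -0.07 to 1.45 on the mutant arrays and 0.65 to 1.49 on the parent arrays. For NTH1 minus NTH2 it was -0.06, and for TPS2 minus TPS1 it was 0.35, with means of 0.75 ± 0.46 on mutant and 0.40 ± 0.20 on parent arrays (SD, n = 4 per strain). The groups overlapped in all 3 pairs. In exact two-sided permutation tests, whose smallest possible p is 0.0286, p was 0.571, 0.857 and 0.286 for the 3 pairs in that order, and 0.857 for each after Benjamini-Hochberg adjustment over the 3 pairs. An unequal change within a pair was therefore not shown, although TSL1 and NTH1 missed the threshold that their relatives passed. Probes of relatives can bind each other's transcripts, which was not tested.

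Most genes that supply the building blocks also rose. Among 6 genes for glucose phosphorylation and UDP-glucose synthesis there were 4 that rose and 0 that fell, and their median difference was 0.53. Over all genes 12.7% rose and 14.0% fell. Of genes above background on all 8 arrays, which include 4 of these 6, 34.7% rose and 16.8% fell. That filter favours genes higher in the mutant. Glucokinase GLK1 rose by 1.17 (adjusted p = 0.0271) and hexokinase HXK1 by 0.89 (adjusted p = 0.0117). The phosphoglucomutases, which make glucose 1-phosphate, followed with 0.61 for the major form PGM2 (adjusted p = 0.00406) and 0.37 for PGM1 (adjusted p = 0.0218). UGP1, which makes UDP-glucose, stood at 0.45 (adjusted p = 0.0693), and hexokinase HXK2 at 0.01 (adjusted p = 0.979). PGM1 was above background on 2 mutant and 2 parent arrays, and its call ended without mutant 1 or 3 or parent 2 or 4 (adjusted p 0.0587 to 0.0820). That of GLK1 ended without mutant 1, 5 or 7 or parent 4 (0.0536 to 0.0669), and without parent 2 the GLK1 difference was 0.74 and still passed. The spots of GLK1 gave 0.58 and 1.75, and neither passed alone (adjusted p = 0.106 and 0.101). The calls of HXK1 and PGM2 held without any 1 array.

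The partners of neutral trehalase moved in both directions. Of 5 genes, 1 rose, 2 fell and 2 did not pass, whereas 12.7% of all genes rose and 14.0% fell. The 14-3-3 genes BMH1 and BMH2, whose proteins bind and activate Nth1, fell by 0.68 (adjusted p = 0.0215) and 0.44 (adjusted p = 0.0323), with the strains not overlapping for either. The BMH2 call ended without mutant 5 or 7 or parent 4 or 6 (adjusted p 0.0652 to 0.110), and that of BMH1 without parent 2 (0.0522). MAL11, an α-glucoside permease that also takes up trehalose, rose by 0.95, or 1.93-fold (adjusted p = 0.000947), and was above background on 3 arrays of each strain. It belongs to a family of similar transporter genes whose transcripts its probe may not tell apart. DCS1, an mRNA cap hydrolase described as an inhibitor of neutral trehalase, stood at 0.32 (adjusted p = 0.102) and its relative DCS2 at 0.44 (adjusted p = 0.122).

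Regulators of cAMP and stress signalling passed about as often as all genes. The 18 genes held 2 that rose, 3 that fell and 13 that did not pass, and their median difference was -0.06. Among all genes 12.7% rose and 14.0% fell. RIM15, a kinase needed for entry into stationary phase, fell by 0.71 (adjusted p = 0.00367) and MSN2 by 0.63 (adjusted p = 0.00563). Both were above background on 2 mutant and 3 parent arrays, and both calls held without any 1 array. MSN4, named after its value was seen, fell by 0.43 (adjusted p = 0.0385). RAS2, which activates adenylate cyclase, rose by 0.91 (adjusted p = 0.0211) and the kinase YAK1 by 0.41 (adjusted p = 0.0241). MSN4 was above background on 2 mutant and 4 parent arrays, YAK1 on 2 mutant and 2 parent arrays, and RAS2 on all 8. The calls of MSN4, RAS2 and YAK1 were less stable. That of MSN4 ended without mutant 1, 5 or 7 or parent 4, 6 or 8 (adjusted p 0.0510 to 0.114), that of RAS2 without mutant 5 or 7 or parent 4 (0.0503 to 0.0602), and that of YAK1 without parent 4 or 6 (0.0738 to 0.0778).

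Known stress genes of the Msn2 and Msn4 group rose or did not pass. Of 10 genes 5 rose and 0 fell, with a median of 0.61. Over all genes 12.7% rose and 14.0% fell. Above background on all 8 arrays were 9 of the 10. In that class, whose filter favours genes higher in the mutant, 34.7% rose and 16.8% fell, with a median of 0.20. The other 5 stress genes missed the threshold, and 2 of them read lower in the mutant. These were DDR2 at -0.20 (adjusted p = 0.394) and HSP26 at -0.05 (adjusted p = 0.896). HSP42, SSA4 and PNC1 stood at 0.60, 0.27 and 0.24 (adjusted p = 0.0781, 0.117 and 0.355). ALD3, an aldehyde dehydrogenase, rose by 1.61 (adjusted p = 2.86e-05), the membrane protein gene HSP12 by 1.16 (adjusted p = 0.000127) and cytosolic catalase CTT1 by 0.61 (adjusted p = 0.00634), and these calls held without any 1 array. HSP78, a mitochondrial disaggregase, rose by 0.81 (adjusted p = 0.0293) and HSP104, its cytosolic counterpart, named after its value was seen, by 0.62 (adjusted p = 0.0422). The HSP78 call ended without mutant 3, 5 or 7 (adjusted p 0.0592 to 0.0714), and that of HSP104 without mutant 1, 3 or 7 or parent 2, 4 or 8 (0.0587 to 0.111). Without parent 2 the difference was 0.51 for HSP78, which still passed, and 0.40 for HSP104. In glycogen metabolism, which draws on the same UDP-glucose, 6 of 8 genes rose and 0 fell, with a median of 0.55. The same shares apply as a background, and 6 of these 8 genes were above background on all 8 arrays. Among those that rose were GPH1, glycogen phosphorylase, at 1.24, GSY2, glycogen synthase, at 1.04, and GDB1 at 0.97, whose calls held without any 1 array. The calls of GLG1 and GLG2 each ended in 4 of the 8 fits without 1 array. That of GSY1 ended without parent 4 (adjusted p = 0.0551), and in that fit 3 glycogen genes were called. GLC3 and SGA1 stood at 0.03 and 0.39 (adjusted p = 0.867 and 0.132).

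**Figure D4:**
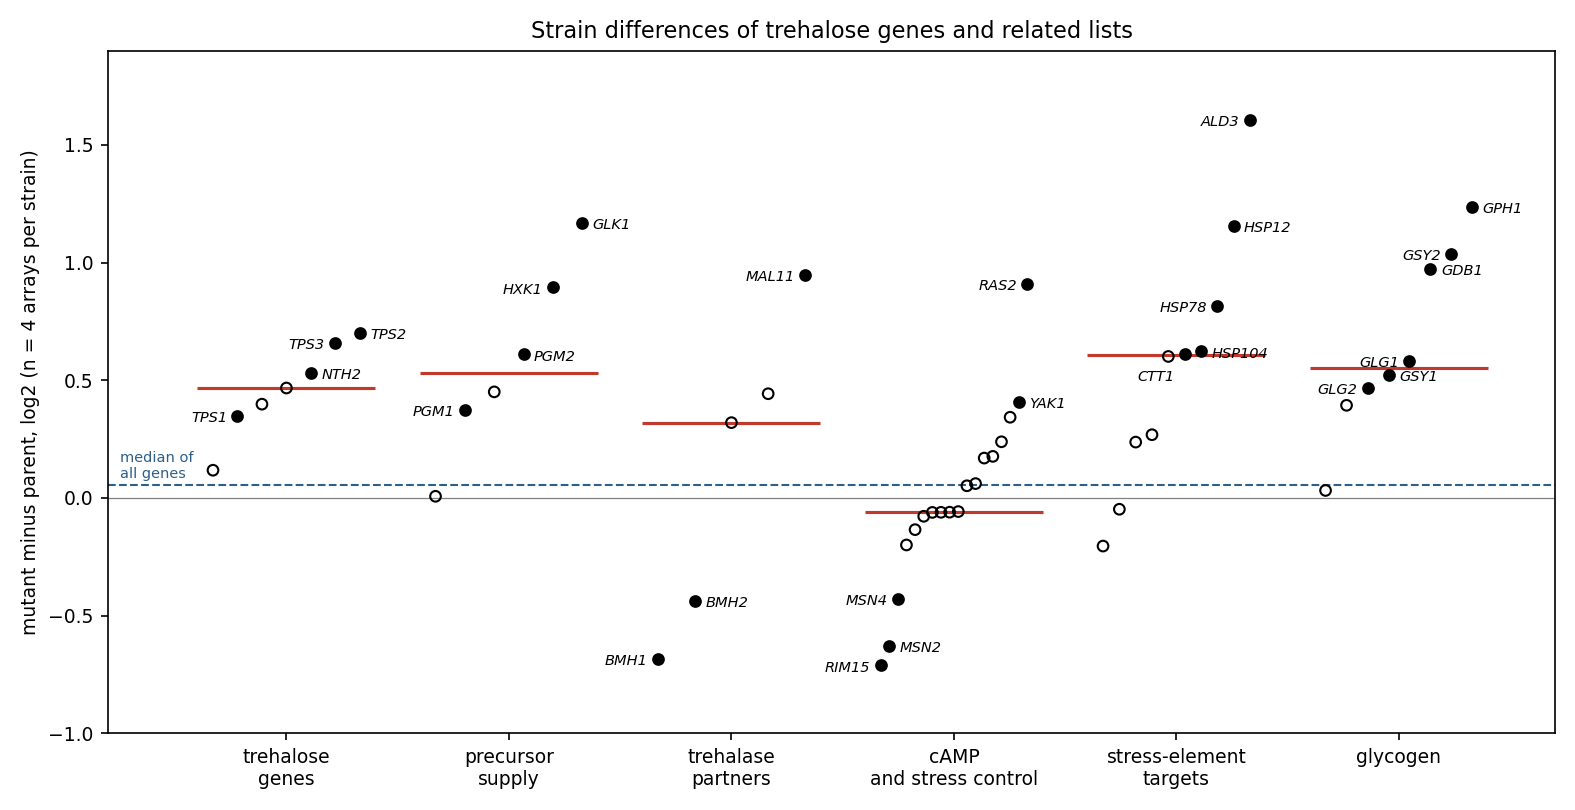
Mutant minus parent difference in log2 level (vertical axis) of the 7 trehalose genes and of the genes of 5 related lists, 1 point per gene (filled and named where limma's adjusted p was under 0.05, n = 4 arrays per strain). Red lines are list medians, at 0.47 for the trehalose genes, and the dashed line is the median of all genes, at 0.05. Called genes of the trehalose, precursor, stress and glycogen lists all lie above the dashed line. The median of genes above background on all 8 arrays, at 0.20, is not drawn, and that filter favours genes higher in the mutant.

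The genes whose profiles over the 8 arrays were most like those of the members were found by the mean absolute difference between log2 values centred on each gene's own mean, over 3951 genes above background on at least 5 arrays. TPS1 lay closest to MTF1, a mitochondrial transcription factor, at 0.035, and to VPS30 at 0.050. For NTH2 the closest were MRP7, a mitochondrial ribosomal protein gene, at 0.054, and DOA1 at 0.056. TPS3 was nearest to IKS1 and YBR137W, TPS2 to YLR257W and AYR1, NTH1 to GYP7 and GUS1, TSL1 to MRP8 and SKM1, and ATH1 to YLR179C and PBA1. These distances were 0.064 to 0.131, and the median distance of all such genes was 0.263 to 0.431, depending on the member. Among the members themselves the closest profiles were those of TPS1 and NTH2, at 0.115, and the farthest were those of TSL1 and NTH1, at 0.518.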

How the data were processed

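The authors deposited 1 scanner table per array. Per the file headers, these hold linear spot intensity and local background read with GenePix Pro 6.1.0.4 at 635 nm, with no normalization. The same deposited tables give a signal-to-noise score and the percent of saturated pixels per spot, which was 0 for all spots of the 7 genes. No genome build of the array was found in the labels or headers. Of 6256 systematic names, 5756 were matched to RefSeq symbols (assembly R64).

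Spot medians were corrected with normexp (offset 50), taken to log2 and quantile-normalized over all 12512 spots, and the 2 spots of a probe were averaged (limma 3.58.1, R 4.3.3). Mutant and parent were compared with lmFit and eBayes on 4 against 4 arrays, without covariates, two-sided, with Benjamini-Hochberg adjustment over all genes. The steps were tested on simulated data with independent noise on each array. That simulation cannot speak to shared RNA between arrays, to slide column or to the choice of scaling. The design text describes independent biological samples. Mutants 1 and 3 and parents 6 and 8 differed least relative to their duplicate spots (0.403 and 0.475 of that variance), and mutants 1 and 3 and parents 4 and 6 had the highest r. All 8 arrays were kept as samples, with these pairs averaged in alternatives. If arrays share RNA, p-values measure partly technical spread.

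The authors' own processed table, also deposited, gives an intensity for each probe. From its values it is linear, not centred, and 32.2 to 32.3 units below quantile-normalized spot medians, with column medians of 75.1 to 79.4. How the constant was chosen stays unknown. It served as an alternative, as log2(value + 50).

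The 7 genes, the lists and the tests were chosen with earlier results of these data known. Named genes were all members, all genes of lists with at most 6 genes, and the 2 nearest profiles per member. Each other list gave up to 4 called genes by adjusted p. The remaining genes of the stress and glycogen lists were named outside this rule, after their values were seen. Precision is limited by the 4 arrays per strain.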

Additional observations from a re-analysis of the deposited data

How the results depend on the processing

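Over 27 alternatives, every tested member was higher in the mutant in 22, and the exceptions were TSL1 or ATH1. The calls of TPS3 and NTH2 were kept in 21 of 25 and 20 of 27 alternatives, that of TPS2 in 16 of 27 and that of TPS1 in 8 of 27. The cause of the changes below was not tested. With 75th percentile scaling 57 of 6256 genes passed in limma (0 higher, 57 lower, 760 at an unadjusted p under 0.05), whereas scaling by the median gave 37 (0 higher, 37 lower, 751 unadjusted), beside 794 higher and 873 lower with quantile normalization. The median of all genes moved from 0.05 to 0.21 and 0.15. In these scalings 0 members passed, and TPS1, TPS2, TPS3 and NTH2 stood at 0.23, 0.60, 0.68 and 0.45, and at 0.17, 0.55, 0.63 and 0.40, with ATH1 at -0.0066 under median scaling. Local background subtraction left 1 member called and ended the calls of TPS1 (0.39), TPS2 (0.77) and NTH2 (0.65). The TPS1 call also ended with no background correction (0.36), an offset of 16 (0.37), spot means (0.32) and gain as a block (0.31). When genes had to be above background throughout 1 strain 738 genes (310 higher, 428 lower) and 2 of 6 members passed, and when on all 8 arrays 298 genes (200 higher, 98 lower) and 2 of 4 members, where TPS1 at 0.35 did not pass in either. Its SE went from 0.12 to 0.14 in both. Each of these filters leans toward 1 direction, as described above, which limits its counts of higher and lower genes.

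Within gain 600, where mutants 1 and 3 were the only mutant arrays, TSL1 passed at 0.88 and ATH1 turned to -0.085. Within gain 700, with 1 parent array assumed to vary like the mutant arrays, 45 genes and 0 members passed in limma (0 members unadjusted), with TPS1, TPS2, TPS3, NTH2 and TSL1 at 0.24, 0.43, 0.52, 0.34 and -0.31. Slide row as a block added NTH1 (0.47). Array weights gave 3034 genes, TSL1 passed at 0.65 and ATH1 turned to -0.024. Chosen after the data were seen were 4 alternatives. With mutants 1 and 3 and parents 6 and 8 averaged 2 members passed, without TPS1 (0.39) and TPS2 (0.55). With parents 4 and 6 averaged in place of 6 and 8, 1023 genes and 1 member passed, without TPS1 (0.34), TPS2 (0.57) and NTH2 (0.49). The first spot alone gave 1053 genes and 2 members, without TPS3 (0.59) and NTH2 (0.50), and the second 870 genes and 1 member, without TPS1 (0.042), TPS2 (0.66) and NTH2 (0.56).

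Leaving out 1 array at a time gave 1205 to 1701 genes and 2 to 4 members, with TPS1 at 0.27 to 0.40, TPS2 at 0.57 to 0.89 and ATH1 at -0.056 to 0.22. The near-zero difference of HXK2 turned to -0.015, -0.20, -0.0016, -0.018, -0.046, -0.011, -0.013 and -0.14 with no background correction, subtraction, offset 16, the authors' value table, gain 700, both averagings and the first spot, and ran from -0.10 to 0.18 without 1 array. DCS2 turned to -0.027 with the second spot. TSL1 minus TPS3 turned to 0.24 within gain 600 and 0.16 with the first spot, and ran from -0.46 to 0.050 without 1 array. NTH1 minus NTH2 turned to 0.25 within gain 700, 0.12 and 0.048 with averaged arrays and 0.0013 with the second spot, and ran from -0.34 to 0.081. No paired analysis by replicate number was possible because the strains share none, and slide row, which pairs 1 mutant with 1 parent array, was the block used. On the dim arrays, low signal over background limits TPS3, TSL1 and ATH1.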

Other observations

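The genes that flank the members on the chromosomes, by their order in the RefSeq table, were looked at as a group chosen by position. Of 14 flanking genes 4 rose, 4 fell and 6 did not pass in limma. The share that passed thus equalled the 57.1% of the members, beside 26.6% of all genes. Beside NTH2, which rose, RER2, a cis-prenyltransferase gene, fell by 0.45 (adjusted p = 0.00924). Next to TPS3 lay TIF11, the gene of translation initiation factor eIF1A, which fell by 0.64 (adjusted p = 0.00501), and YMR262W, which rose by 0.34 (adjusted p = 0.0489). TPS2 had SNF11, a subunit of the SWI/SNF remodeler, on 1 side, which rose by 0.67 (adjusted p = 0.00460), and PPH3, a phosphatase gene, on the other, which fell by 0.36 (adjusted p = 0.0224). Neither neighbour of TPS1 passed. These genes were chosen for their place and not by the rule for named genes.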
